A study of Rattus norvegicus with 5 samples.

Results

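The genes of the respiratory chain and of ATP synthase were followed in rat corneas with and without a human mineralocorticoid receptor transgene. They were taken by symbol from the deposited gene table: every symbol that begins with Mt-, Ndufa, Ndufb, Ndufc, Ndufs, Ndufv, Uqcr, Cox4 to Cox8 or Atp5, the 4 genes Sdha to Sdhd, and Cyc1 and Cycs. The rule found 98 of 20339 genes, 13 of them encoded by mitochondrial DNA and 85 by the nucleus. The groups were 2 corneas of transgenic P1 hMR rats, which overexpress human NR3C2, the gene of the mineralocorticoid receptor (MR), and 3 corneas of wild-type rats. All 5 rats were male Sprague-Dawley animals aged 6 months, with no treatment named, and each library is taken as 1 rat. The labels give neither the promoter's site of action nor the number of transgenic founders, so the 2 transgenic libraries stand for the strain as labelled.

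The respiratory chain passes electrons from NADH and succinate to oxygen through complexes I to IV and pumps protons across the inner mitochondrial membrane, and ATP synthase uses that gradient to make ATP. Mitochondrial DNA encodes a few hydrophobic subunits of complexes I, III and IV and of ATP synthase, and nuclear genes encode the rest, so every such complex is built from both genomes. In the cornea the endothelium, whose ion pumps keep the stroma clear, is rich in mitochondria, while the epithelium draws much of its ATP from glycolysis. MR answers to aldosterone and to glucocorticoids and acts as a transcription factor.

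Gene-table totals ran from 20874010 to 30449675 estimated counts per library. Human NR3C2 had 1094 and 1146 counts in transgenic corneas 1 and 2, against 0, 0 and 0 in wild-type corneas 1 to 3, so the transgene matched the labels. Krt12, the corneal keratin, lay between 32247 and 45506 CPM (counts scaled to a common library size by edgeR's TMM factors) and Aldh3a1, a corneal crystallin enzyme, between 28959 and 34863 CPM, so the tissue carried its epithelial markers in every library. All values below come from whole corneas, in which fewer cells of a type and less RNA per cell cannot be told apart.

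No respiratory chain or ATP synthase gene passed the test between transgenic and wild-type corneas. Of the 98 genes, 90 had enough counts to be tested, and of these 0 rose and 0 fell by edgeR's quasi-likelihood test with Benjamini-Hochberg adjustment over 13304 genes at a threshold of 0.05. Of all genes tested 0.00752% passed, the transgene alone. Adjusted p-values of the 90 genes lay between 0.774 and 0.999 by this edgeR test. At an unadjusted p under 0.05 there were 2 of the 90, where 6.32% of all genes met that mark: Cox4i2, higher in transgenic corneas (4.39% of all genes), and Ndufaf4, lower (1.93%). DESeq2 called 0 of the 90, and 0.391% of all genes, with 1 of the 90 and 6.1% of all genes at an unadjusted p under 0.05. Limma voom called 0 of them. For 3 genes the transgenic pair was above every wild-type value, against 12% of all genes tested, and for 6 it was below, against 10.7%.

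The intervals of these fold changes were narrow. For 73 of the 90 genes the 95% interval of the log2 fold change (transgenic over wild-type) lay within 1.5-fold in either direction, which held for 60.8% of all genes tested. The log2 fold change was above 0 for 32 of the 90 genes and below 0 for 58, against 48.2% and 51.8% of all genes. Its median was -0.02 over the 13 mitochondrial-encoded genes and -0.03 over the 69 tested nuclear-encoded subunits and cytochrome c, beside -0.01 over all genes tested. Those medians turned with single libraries: the nuclear median was 0.06 without transgenic cornea 1 and -0.12 without transgenic cornea 2. The signs turned too. In the fit above, 42 of the 69 nuclear-encoded and 10 of the 13 mitochondrial-encoded genes were below 0. With library totals and no scaling factors these counts were 35 and 7. With a library left out they ran from 24 to 58 and from 2 to 13.

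**Figure D1:**
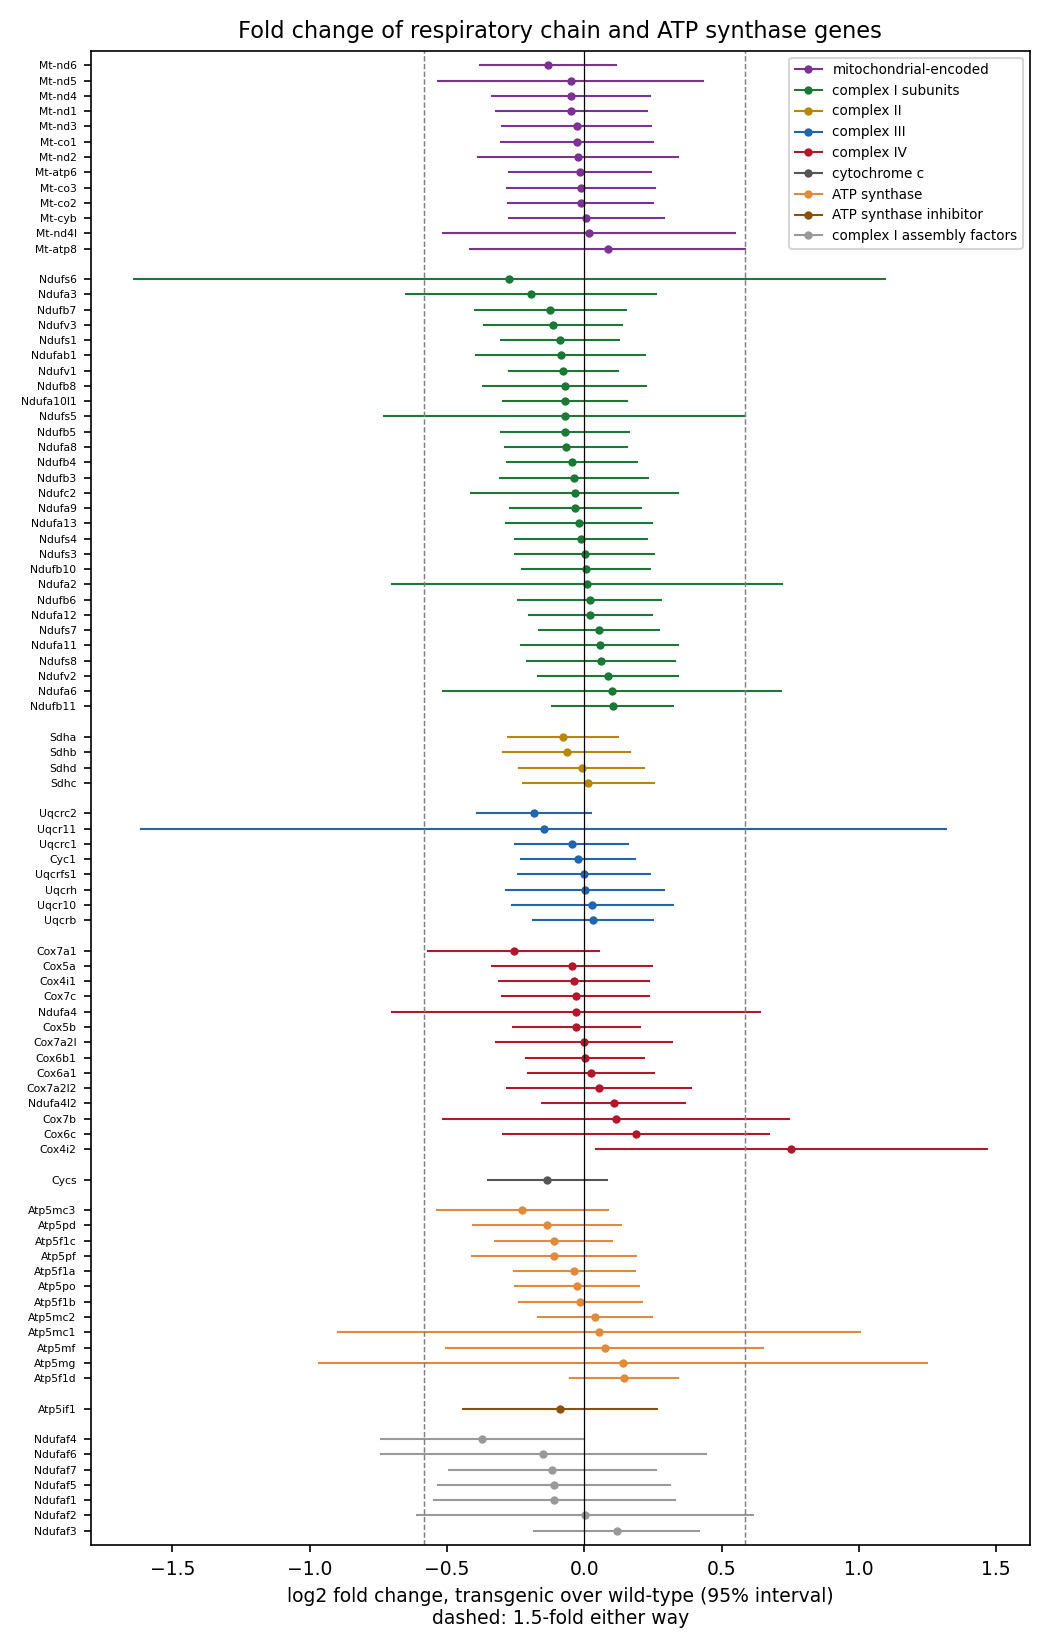
Log2 fold change of tested genes, transgenic over wild-type (x axis), with the 95% interval from the edgeR fit, grouped by complex down the page. Dashed lines mark 1.5-fold either way; most intervals lie between them, and Cox4i2 has the highest estimate, at 0.75.

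The 13 mitochondrial-encoded genes are read from long transcripts of both strands of mitochondrial DNA that are then cut into single messages. Together they took 3.81% and 4.46% of all counts in transgenic corneas 1 and 2, and 4.34%, 3.65% and 4.40% in wild-type corneas 1 to 3. Values of the genotypes overlapped, and wild-type cornea 2 had the lowest share. All 13 passed the filter on low counts, and none had groups that did not overlap.

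Mt-co1, the catalytic subunit of complex IV, gave 13772 and 16286 CPM in transgenic corneas 1 and 2 and 15646, 14332 and 15927 CPM in wild-type corneas 1 to 3. The transgenic values bracketed the wild-type ones (log2 fold change -0.03 ± 0.12, mean ± SE; 95% interval -0.30 to 0.25). Mt-co2 and Mt-co3, which complete the mitochondrial-encoded part of that complex, averaged 3833 ± 419 and 4112 ± 370 CPM in transgenic (SD, n = 2) and 3866 ± 229 and 4148 ± 344 CPM in wild-type corneas (SD, n = 3). Mt-cyb, cytochrome b of complex III, had 4142 and 4607 CPM in transgenic and 4470, 3826 and 4757 CPM in wild-type corneas, with a log2 fold change of 0.01 ± 0.13.

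Mitochondrial-encoded subunits of complex I form the proton-pumping membrane arm. Mt-nd5, a pump subunit at its tip, had 1533 and 1557 CPM in transgenic corneas 1 and 2, against 1826, 1148 and 1822 CPM in wild-type corneas 1 to 3. Both transgenic values fell inside the wild-type range, which wild-type cornea 2 alone made wide. Mt-nd4l had the same order, with 209 and 220 CPM in transgenic and 247, 149 and 238.5 CPM in wild-type corneas. Mt-nd2 and Mt-nd1 averaged 2026 ± 123 and 2381 ± 128 CPM in transgenic corneas (SD, n = 2) and 2057 ± 391 and 2458 ± 274 CPM in wild-type corneas (SD, n = 3). Mt-nd4 had 2339 and 2320 CPM in transgenic and 2625, 2044 and 2555 CPM in wild-type corneas. Mt-nd3 averaged 387 ± 39.0 CPM in transgenic and 394 ± 44.1 CPM in wild-type corneas.

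Mt-nd6 is the only protein gene on the light strand of mitochondrial DNA and had the lowest log2 fold change of the 13. It had 395 and 349 CPM in transgenic corneas 1 and 2 and 428, 371 and 423.5 CPM in wild-type corneas 1 to 3. These groups overlapped, and the log2 fold change of -0.13 ± 0.11 did not pass (adjusted p = 0.875, edgeR quasi-likelihood test). Per count of Mt-co1, Mt-nd6 stood at 0.0287 and 0.0214 in transgenic and at 0.0274, 0.0259 and 0.0266 in wild-type corneas, so the transgenic pair was both the highest and the lowest. No source used here says if the libraries were stranded, and without strand the reads of Mt-nd6 and of the opposite strand cannot be told apart.

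Mt-atp6 and Mt-atp8 encode membrane subunits of ATP synthase from overlapping reading frames. Mt-atp6 had 3504 and 3930 CPM in transgenic corneas 1 and 2 and 3897, 3452 and 3914 CPM in wild-type corneas 1 to 3. Mt-atp8 had 520 and 627 CPM in transgenic and 636, 397 and 589 CPM in wild-type corneas, and wild-type cornea 2 was again the lowest. The count ratio of Mt-atp8 to Mt-atp6 was 0.148 and 0.159 in transgenic corneas and 0.163, 0.115 and 0.150 in wild-type corneas. Because these genes share bases, as Mt-nd4l and Mt-nd4 do, the split between them rests on the authors' allocation of reads.

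Nuclear-encoded subunits as a whole held a nearly even share of each library. The 76 nuclear-encoded subunit genes and cytochrome c took 0.451% and 0.513% of counts in transgenic corneas 1 and 2 and 0.487%, 0.4996% and 0.460% in wild-type corneas 1 to 3. By these unscaled shares transgenic cornea 1 was the lowest of the 5 and transgenic cornea 2 the highest, so the wild-type values lay between them. As summed CPM transgenic cornea 1 was again the lowest (4572 CPM). Wild-type cornea 2 was then the highest (5104 CPM), above transgenic cornea 2 (4973 CPM). As a median over the 69 tested genes, the deviation of log2(CPM + 0.5) from the wild-type mean was -0.10 and 0.07 in transgenic and -0.00, 0.07 and -0.09 in wild-type corneas. For the mitochondrial-encoded genes it was -0.06 and 0.08 in transgenic and 0.10, -0.16 and 0.09 in wild-type corneas.

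**Figure D2:**
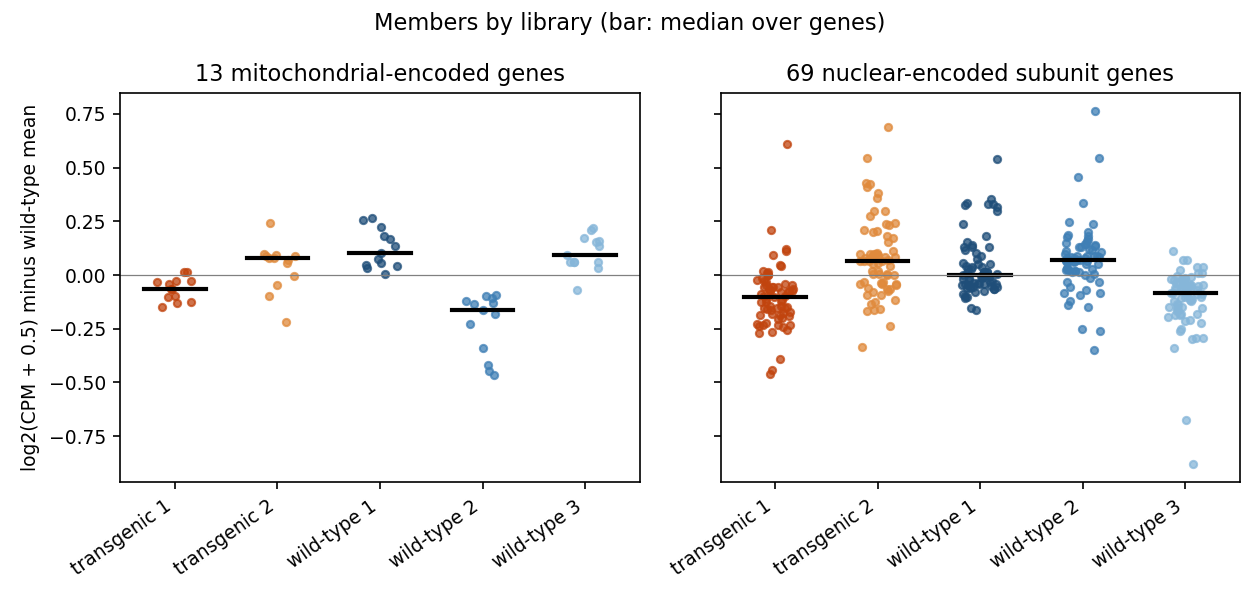
Each point is 1 gene in 1 library, as log2(CPM + 0.5) minus the wild-type mean of that gene (y axis); black bars are medians over the genes. In wild-type cornea 2 the median is -0.16 for the mitochondrial-encoded genes (left) and 0.07 for the nuclear-encoded subunits (right).

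Over all 90 genes wild-type cornea 2 was the highest library for 39, transgenic cornea 2 for 26 and wild-type cornea 3 for 7, against 24.9%, 23.1% and 17.9% of all genes tested. Transgenic cornea 1 was the lowest for 35 and transgenic cornea 2 for 12, against 17.6% and 23.4%. In wild-type cornea 2 the 2 genomes went opposite ways. It had the lowest CPM of the 5 libraries for 9 of 13 mitochondrial-encoded genes, where 23.8% of all genes were lowest in that library, and the highest CPM for 36 of 69 nuclear-encoded subunits, beside the same 24.9%. Transgenic cornea 1 was the lowest for 31 of the 69 and wild-type cornea 3 for 19, the last against 15.9% of all genes. The count ratio of mitochondrial-encoded genes to nuclear-encoded subunits was 8.44 and 8.69 in transgenic corneas 1 and 2 and 8.91, 7.30 and 9.56 in wild-type corneas 1 to 3. These sums are not scaled for transcript length, so the ratio can be set between libraries but is no ratio of molecules. Its mean was 8.56 ± 0.180 in transgenic corneas (SD, n = 2) and 8.59 ± 1.16 in wild-type corneas (SD, n = 3), and the transgenic pair sat inside the wild-type range.

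Complex by complex the same library stood low. For complex I the ratio was 7.72 and 7.13 in transgenic corneas and 8.07, 5.88 and 8.62 in wild-type corneas 1 to 3. For complex III it was 7.24 and 7.68 in transgenic and 7.41, 5.97 and 8.31 in wild-type corneas, and for complex IV 29.5 and 28.7 in transgenic and 29.1, 26.6 and 33.8 in wild-type corneas. For ATP synthase it was 2.29 and 2.46 in transgenic and 2.51, 1.99 and 2.58 in wild-type corneas. In all 4 complexes that mix both genomes, wild-type cornea 2 was the lowest library, wild-type cornea 3 the highest, and both transgenic corneas lay between them.

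**Figure D3:**
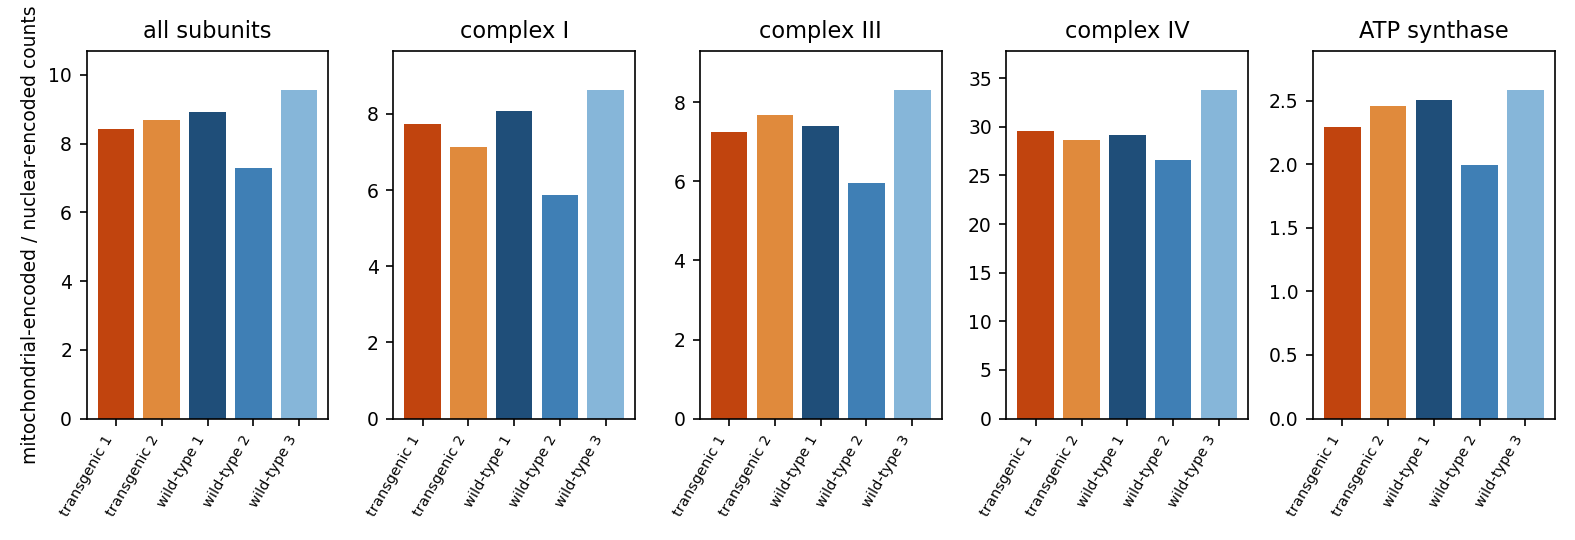
Summed counts of mitochondrial-encoded genes divided by summed counts of nuclear-encoded subunits in each library (y axis, from 0), over all subunits and for each complex that holds both. The ratio over all subunits is 7.30 in wild-type cornea 2 and 9.56 in wild-type cornea 3, with the transgenic corneas at 8.44 and 8.69.

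Complex I takes electrons from NADH and is the largest complex of the chain. Of its 31 nuclear-encoded subunit genes, 30 were tested, 11 with a log2 fold change above 0 and 19 below, and their median was -0.04. Ndufs1, a core subunit of the arm that faces the matrix, averaged 80.8 ± 3.09 CPM in transgenic corneas (SD, n = 2) and 85.9 ± 5.94 CPM in wild-type corneas (SD, n = 3), with overlapping groups. Ndufv3, a small subunit of the NADH-binding module, averaged 79.3 ± 5.15 CPM in transgenic and 85.9 ± 9.88 CPM in wild-type corneas. Ndufb11, a membrane-arm subunit encoded on the X chromosome in mammals, had 52.6 and 51.9 CPM in transgenic corneas, just above the wild-type values of 45.1, 51.4 and 49.5 CPM (log2 fold change 0.10 ± 0.10).

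Assembly factors, the Ndufaf genes, help to build complex I without staying in it. All 7 were tested, with a median log2 fold change of -0.11. Ndufaf4 had 7.94 and 7.61 CPM in transgenic corneas 1 and 2, against 9.61, 11.1 and 9.47 CPM in wild-type corneas 1 to 3. These groups did not overlap, with transgenic corneas lower, and the test was not passed (log2 fold change -0.37 ± 0.17, unadjusted p = 0.0495 and adjusted p = 0.787 by the edgeR test). Ndufaf3 and Ndufaf7, the most abundant of them by counts, averaged 16.6 ± 0.0269 and 10.4 ± 0.289 CPM in transgenic corneas (SD, n = 2) and 15.3 ± 1.23 and 11.2 ± 1.61 CPM in wild-type corneas (SD, n = 3).

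Complex II, succinate dehydrogenase, is the complex with no mitochondrial-encoded subunit, and all 4 of its genes had intervals within 1.5-fold. Sdha, the flavoprotein that oxidises succinate, had 102.3 and 101.9 CPM in transgenic corneas and 102.8, 112.7 and 107.4 CPM in wild-type corneas. The transgenic pair lay just below the lowest wild-type value, and the test was not passed (log2 fold change -0.08 ± 0.09, edgeR adjusted p = 0.911). Sdhd, a membrane anchor, averaged 92.5 ± 10.3 CPM in transgenic (SD, n = 2) and 93.1 ± 4.44 CPM in wild-type corneas (SD, n = 3), and Sdhb and Sdhc gave log2 fold changes of -0.06 ± 0.10 and 0.02 ± 0.11.

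Complex III passes electrons from ubiquinol to cytochrome c. Uqcrc2, a large matrix-side core protein, had 119 and 123 CPM in transgenic corneas 1 and 2, against 134, 146 and 132 CPM in wild-type corneas 1 to 3. Both transgenic values lay below all wild-type values, and the log2 fold change of -0.18 ± 0.09 did not pass (unadjusted p = 0.0774, adjusted p = 0.824, edgeR quasi-likelihood test). Its partner Uqcrc1 averaged 151 ± 7.01 CPM in transgenic (SD, n = 2) and 155 ± 6.09 CPM in wild-type corneas (SD, n = 3), with overlapping groups. Cyc1 and Uqcrfs1, the cytochrome c1 and iron-sulphur subunits that carry the electrons, had log2 fold changes of -0.02 ± 0.09 and -0.00 ± 0.11. Cycs, cytochrome c itself, had 58.2 and 64.1 CPM in transgenic and 69.6, 68.4 and 63.2 CPM in wild-type corneas (log2 fold change -0.13 ± 0.10, edgeR adjusted p = 0.860).

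Complex IV, cytochrome c oxidase, has subunits that exist in tissue-specific forms, and the highest estimate in the chain was one of them. Cox4i2, a form of subunit 4 known from lung and from responses to low oxygen, had 3.05 and 3.25 CPM in transgenic corneas 1 and 2, against 2.24, 1.32 and 2.00 CPM in wild-type corneas 1 to 3. These groups did not overlap, and the test was not passed (log2 fold change 0.75 ± 0.32, 95% interval 0.04 to 1.47; unadjusted p = 0.0402, adjusted p = 0.774 by the edgeR test). Cox4i1, the form found in most tissues, had 133 and 161 CPM in transgenic and 152, 167 and 134 CPM in wild-type corneas. Counts of Cox4i2 per count of Cox4i1 were 0.0229 and 0.0202 in transgenic and 0.0148, 0.00791 and 0.0149 in wild-type corneas, so this ratio too was higher in both transgenic corneas.

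Pigment-cell markers, like Cox4i2, were higher in both transgenic corneas. Of 8 markers listed for pigment cells 7 were in the table, and all 7 were higher in both transgenic corneas than in any wild-type cornea. Of all genes tested 12% had that order. It also held for 4 of 6 keratocyte, 4 of 6 corneal endothelium and 3 of 7 photoreceptor markers. For corneal epithelium, skeletal muscle, lens, leukocyte and brown fat it held for 0 markers. The summed level of the pigment-cell markers was 80.4 and 151 CPM in transgenic corneas 1 and 2 and 45.8, 9.54 and 32.2 CPM in wild-type corneas 1 to 3. The wild-type order was that of Cox4i2, with cornea 1 highest and cornea 2 lowest, and photoreceptor markers had it too. Between transgenic corneas 1 and 2 Cox4i2 was nearly equal (3.05 and 3.25 CPM), whereas the pigment sum was not. The part of any cell type in the Cox4i2 values was not tested.

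Cox7a1, the heart and muscle form of subunit 7a, had 12.5 and 12.6 CPM in transgenic corneas 1 and 2, against 13.9, 16.1 and 15.1 CPM in wild-type corneas 1 to 3. Both transgenic values were the lower ones, and the test was not passed (log2 fold change -0.26 ± 0.14, edgeR adjusted p = 0.835). Skeletal muscle markers, 11 of the 15 listed being in the table and 0 of these at 0 in all libraries, summed to 26.3 and 30.0 CPM in transgenic and 40.1, 24.6 and 19.5 CPM in wild-type corneas. The wild-type cornea with the highest muscle sum, cornea 1, had the lowest wild-type Cox7a1 value. The part of muscle in the Cox7a1 values was not tested. Cox6a2, the muscle form of subunit 6a, had 10 and 4 counts in transgenic and 6, 2 and 2 counts in wild-type corneas and was too low to test, whereas its widely expressed partner Cox6a1 averaged 131 ± 7.62 CPM in transgenic (SD, n = 2) and 129 ± 10.55 CPM in wild-type corneas (SD, n = 3).

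The remaining complex IV genes showed no separation by genotype. Cox6b1, a subunit that joins the dimer, had 62.0 and 71.0 CPM in transgenic and 67.6, 65.6 and 65.8 CPM in wild-type corneas, a log2 fold change of 0.00 ± 0.10. Cox7a2l, which bridges complexes III and IV in supercomplexes, had 63.4 and 86.6 CPM in transgenic and 79.7, 78.0 and 67.5 CPM in wild-type corneas, with the transgenic pair outside the wild-type range on either side. Ndufa4l2, a paralogue of Ndufa4 known to respond to low oxygen, had 30.1 and 26.0 CPM in transgenic and 26.0, 24.8 and 27.3 CPM in wild-type corneas (log2 fold change 0.11 ± 0.12). Ndufa4 carries a complex I name but is now placed in complex IV, and it is counted there. No gene found by the rule carried the symbol Cox6b2, Cox7a2, Cox8a or Cox8b, so these were not analysed here.

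**Figure D4:**
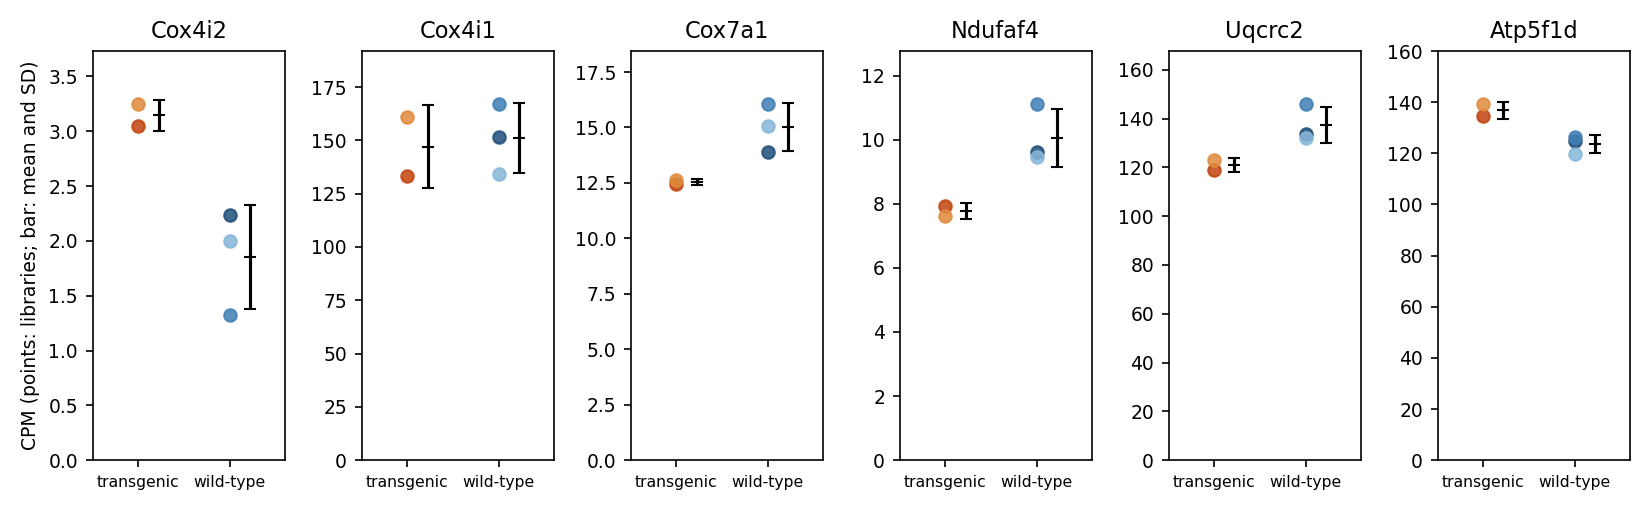
CPM by genotype for 6 genes (y axes from 0); points are libraries and the bar beside them is the mean with its SD (n = 2 transgenic, n = 3 wild-type). Cox4i2 and Atp5f1d are higher in both transgenic corneas and Cox7a1, Ndufaf4 and Uqcrc2 lower, none past the threshold, while the groups of Cox4i1 overlap.

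ATP synthase has a catalytic F1 head, a stalk, and a membrane ring with its neighbours. Atp5f1b and Atp5f1a, the subunits that form the head, averaged 648 ± 9.81 and 348 ± 14.3 CPM in transgenic corneas (SD, n = 2) and 655 ± 36.1 and 357 ± 19.4 CPM in wild-type corneas (SD, n = 3), with log2 fold changes of -0.01 ± 0.10 and -0.04 ± 0.10. Atp5f1c, the rotating shaft, averaged 95.4 ± 7.14 CPM in transgenic and 103 ± 4.93 CPM in wild-type corneas. Atp5f1d, the delta subunit at the foot of that shaft, had 134 and 139 CPM in transgenic corneas 1 and 2, both above the wild-type values of 125, 126 and 120 CPM. That difference did not pass (log2 fold change 0.15 ± 0.09, edgeR adjusted p = 0.839).

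Atp5mc3 encodes the c subunit of the membrane ring and had 75.9 and 64.5 CPM in transgenic and 73.3, 96.6 and 76.3 CPM in wild-type corneas. The genes Atp5mc1, Atp5mc2 and Atp5mc3 encode the same mature protein, and the values of such copies depend on how shared reads were divided. Atp5pd, a part of the outer stalk, averaged 98.5 ± 9.73 CPM in transgenic (SD, n = 2) and 108 ± 13.4 CPM in wild-type corneas (SD, n = 3). Atp5if1, the inhibitor that blocks ATP synthase from running backwards, had 123 and 161 CPM in transgenic and 174, 146 and 132 CPM in wild-type corneas, and its groups overlapped.

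At a mean of at least 10 CPM the widest differences lay between libraries and across genotypes. Below that level Uqcr11, Atp5mc1, Ndufs6 and Cox4i2 had higher ratios of the highest to the lowest library (6.05, 2.87, 2.76 and 2.46). Of these, Cox4i2 was higher in both transgenic corneas and the others overlapped. Among the 81 genes of the set with a mean of at least 10 CPM, 12 had a ratio of at least 1.5 between the highest and the lowest library (14.8%, against 13.7% of all genes at that level). These 12 were chosen by that spread, so their values are a description; the ratio was 1.51 for Atp5mf, the last inside, and 1.498 for Atp5mc3, the first outside. Of the 12, 3 were mitochondrial-encoded (Mt-nd4l, Mt-atp8 and Mt-nd5, all lowest in wild-type cornea 2) and 9 nuclear-encoded. In 8 of these 9, Ndufa3 being the exception, transgenic cornea 2 and wild-type cornea 1 were the highest libraries, an order seen in 9.76% of all genes tested and in 12.6% of all genes with such a spread. Over all 69 tested nuclear-encoded subunits that pair was highest in 19 (27.5%), and transgenic cornea 2 with wild-type cornea 2 in 20 (29.0%), where 8.403% of all genes had the last order.

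These 8 genes encode small accessory subunits of complex I, complex IV and ATP synthase. Atp5mg, subunit g of the ATP synthase membrane part, had 42.5 and 74.7 CPM in transgenic corneas 1 and 2 and 74.6, 42.9 and 41.7 CPM in wild-type corneas 1 to 3. Transgenic cornea 2 and wild-type cornea 1 were thus almost equal, and the other 3 libraries were almost equal at the lower level. Ndufa2, an accessory subunit of the matrix arm of complex I, had 15.3 and 27.5 CPM in transgenic and 25.9, 20.9 and 16.9 CPM in wild-type corneas. Cox7b, a subunit of complex IV, had 43.0 and 68.3 CPM in transgenic and 63.8, 45.6 and 44.7 CPM in wild-type corneas. Ndufa6, Ndufs5, Ndufa4, Cox6c and Atp5mf followed the same order, with ratios of the highest to the lowest library from 1.51 to 1.76.

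With 1 transgenic and 1 wild-type cornea high, the fold changes of these 8 genes by genotype were small and poorly fixed. The log2 fold change was 0.14 ± 0.40 for Atp5mg (95% interval -0.97 to 1.25) and 0.12 ± 0.25 for Cox7b. For 6 core subunits of complex I the median ratio between the highest and the lowest library was 1.18 (range 1.08 to 1.25). Among them are those that hold its flavin and iron-sulphur centres. For 22 accessory subunits the median was 1.23 (range 1.09 to 2.76), so the ranges overlapped. Over all genes tested it was 1.33, higher than in either class. Ndufa10l1, with a ratio of 1.19, was placed in neither class. Transgenic cornea 2 and wild-type cornea 1 were the highest libraries in 9.76% of all genes tested. They were so in 2 of the 6 core and 6 of the 22 accessory subunits. Genes of cytosolic ribosomal proteins, a set chosen after these values were seen, had that order in 38 of 65 cases. Their median deviation from the wild-type mean was -0.20 and 0.18 in transgenic corneas 1 and 2 and 0.08, 0.03 and -0.10 in wild-type corneas 1 to 3 on the log2 scale. What the 2 high libraries share was not tested.

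**Figure D5:**
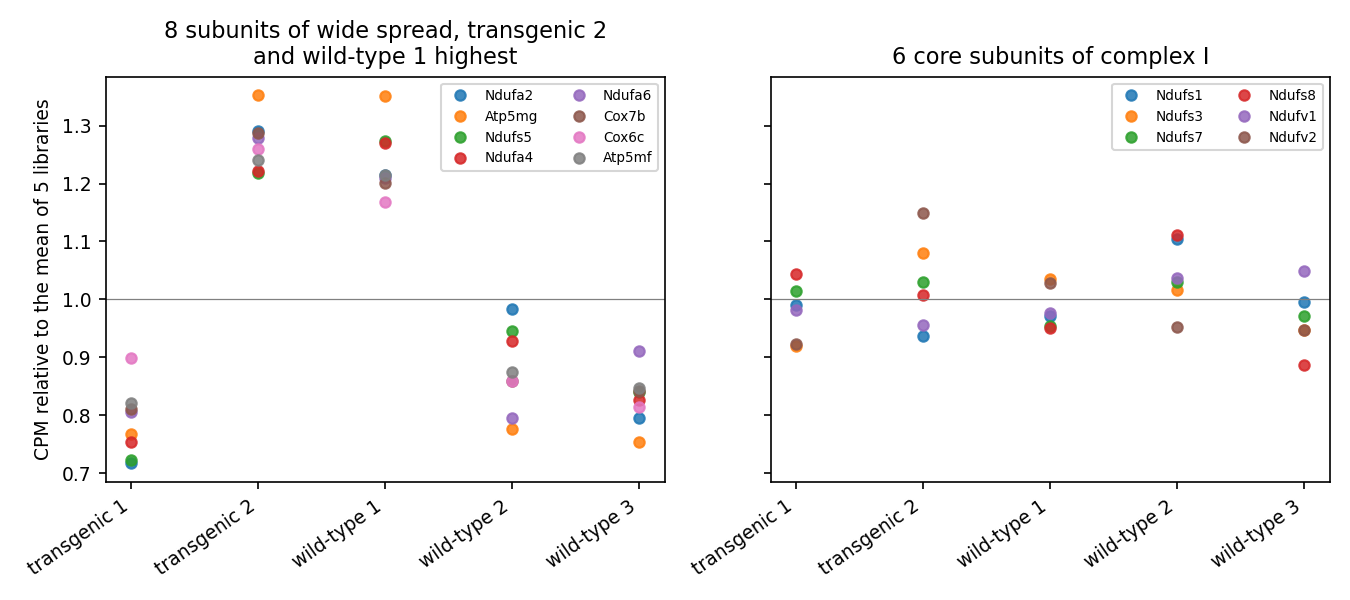
CPM of each gene relative to its mean over 5 libraries (y axis), for the 8 nuclear-encoded subunits above 10 CPM chosen for their spread and for having transgenic cornea 2 and wild-type cornea 1 highest (left) and 6 core subunits of complex I (right). That choice fixes both the order and the wide spread on the left, where Atp5mg has 74.7 CPM in transgenic cornea 2 and 42.5 CPM in transgenic cornea 1. The core subunits were not chosen by spread, so the spreads of the 2 panels cannot be compared.

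Many nuclear genes of the chain are known targets of NRF1 and of the ETS factor GABP. Promoters of Atp5mg, Ndufa6 and Cox7b, picked from the widely varying subunits, and of Ndufaf4 are therefore shown. Sequences came from a RefSeq table of build GRCr8, which is not the build named for the counts, and 73 of the 85 nuclear-encoded genes matched it. The 250 bases before the annotated start were searched on both strands. GCGCATG, from the NRF1 motif, was found in 15 of 73 promoters (20.5%), against 6.14% of 10016 promoters of tested genes. CCGGAAG, an ETS motif, was found in 17 of 73 (23.3%), against 14.4%. The 73 include genes that were not tested, whereas the 10016 do not. Of the untested genes, Atp5me and Cox8c held the NRF1 letters, and Atp5me and Atp5md the ETS motif. Over all 27457 promoters, tested or not, the shares were 3.45% for the NRF1 letters and 7.74% for the ETS motif. Atp5mg and Ndufa6 held both, Ndufa2 the ETS motif and Ndufaf4 the NRF1 letters, while Cox7b, Ndufs5, Ndufa4 and Atp5mf held neither in this window. Cox6c was not among the matched genes. Each sequence reads 5′ to 3′ on the gene's strand and ends at the base before the start. Capitals mark matches on either strand; in Ndufa6 and in Ndufaf4 the NRF1 letters match on both strands and overlap. Atp5mg lies on the minus strand at chr8:54130408-54130657 and Ndufa6 on the minus strand at chr7:115750318-115750567. Cox7b lies on the plus strand at chrX:75148786-75149035 and Ndufaf4 on the plus strand at chr5:43401545-43401794.
Atp5mg: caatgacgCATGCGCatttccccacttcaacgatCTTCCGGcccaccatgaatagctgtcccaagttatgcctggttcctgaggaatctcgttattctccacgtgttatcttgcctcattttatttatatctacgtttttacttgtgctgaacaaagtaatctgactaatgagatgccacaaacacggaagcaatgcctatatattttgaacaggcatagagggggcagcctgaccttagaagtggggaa
Ndufa6: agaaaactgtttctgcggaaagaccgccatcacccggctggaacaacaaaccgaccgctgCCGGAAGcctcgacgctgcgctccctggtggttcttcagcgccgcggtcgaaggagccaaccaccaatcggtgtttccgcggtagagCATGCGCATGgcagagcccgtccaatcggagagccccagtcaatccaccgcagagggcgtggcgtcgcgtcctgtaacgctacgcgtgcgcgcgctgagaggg
Cox7b: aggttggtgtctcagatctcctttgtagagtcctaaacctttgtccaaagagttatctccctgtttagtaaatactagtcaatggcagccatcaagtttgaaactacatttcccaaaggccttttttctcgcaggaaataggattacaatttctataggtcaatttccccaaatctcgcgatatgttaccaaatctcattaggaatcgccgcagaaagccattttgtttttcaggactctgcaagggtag
Ndufaf4: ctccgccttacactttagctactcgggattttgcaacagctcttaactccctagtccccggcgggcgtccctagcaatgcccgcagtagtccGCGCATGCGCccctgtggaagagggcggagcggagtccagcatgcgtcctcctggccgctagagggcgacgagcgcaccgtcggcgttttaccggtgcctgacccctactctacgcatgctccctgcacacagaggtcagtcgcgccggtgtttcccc

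Some genes of the set were listed at very low counts. Of the 8 that were not tested, Ndufb2, Cox7b2, Cox8c and the pseudogene Cox6c-ps1 were listed at 0 in all 5 libraries. For Ndufb2 that holds for the gene counts only, since its isoform in the isoform file had 868 and 1071 counts in transgenic and 930, 685 and 661 counts in wild-type corneas. Atp5f1e, a subunit of the F1 stalk, had 6 and 14 counts in transgenic corneas and 4, 3 and 2 counts in wild-type corneas. Atp5me had 1 and 3 counts in transgenic and 0, 4 and 1 counts in wild-type corneas, and Atp5md 2 and 1 in transgenic and 1, 7 and 3 in wild-type corneas. These are values of the deposited table, and no level in the tissue is read from them. Ndufs6, Uqcr11 and Atp5mc1 were tested at low counts. Ndufs6, a subunit of the matrix arm of complex I, had 0.386 and 0.478 CPM in transgenic and 0.397, 0.881 and 0.319 CPM in wild-type corneas. Uqcr11 had 0.925 and 1.34 CPM in transgenic and 1.23, 2.20 and 0.364 CPM in wild-type corneas, and the 95% intervals of all 3 genes reached past 1.5-fold.

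Among isoforms, 112 carried a matching gene name and 100 were tested. By edgeR 0 of them passed and 0 had an unadjusted p under 0.05; over all 27110 isoforms tested 0% passed and 3.98% had an unadjusted p under 0.05. DESeq2 called 0 of them as well. Atp5pb, a subunit of the outer stalk, Ndufa7 and Ndufb9 matched the rule by isoform name only. The main isoform of Atp5pb had 126 and 125 CPM in transgenic and 131, 146 and 132 CPM in wild-type corneas. Ndufa10l1 had 2 listed isoforms, and the lesser took 1.98% and 31.4% of the summed counts of those 2 in transgenic corneas 1 and 2 and 26.1%, 24.1% and 17.99% in wild-type corneas 1 to 3, which puts transgenic cornea 1 apart. In each library that sum was below the count of Ndufa10l1 in the gene table, 1510 and 1608 in transgenic and 1538, 1240 and 1234 in wild-type corneas. The listed isoform of Ndufaf4 had 5.45 and 5.01 CPM in transgenic and 5.40, 7.24 and 7.01 CPM in wild-type corneas, so the genotypes overlapped there.

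Genes that serve the chain from outside it were read from 5 lists, and none of their tested members passed. Of 29 tested assembly factors outside the rule 12 had a log2 fold change above 0 and 17 below (median -0.02); Cox15, which makes haem a for complex IV, had the smallest p, with 36.6 ± 2.73 CPM in transgenic (SD, n = 2) and 30.7 ± 2.52 CPM in wild-type corneas (SD, n = 3). Of 30 tested genes for upkeep and expression of mitochondrial DNA 22 were below 0 (median -0.08). The smallest p was that of Tbrg4, a factor for mitochondrial RNA, with 29.0 and 28.02 CPM in transgenic and 35.2, 35.9 and 29.4 CPM in wild-type corneas. Its groups did not overlap, and the log2 fold change of -0.23 ± 0.12 did not pass (edgeR adjusted p = 0.829).

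Among 15 tested regulators of mitochondrial biogenesis the median log2 fold change was -0.01. Ppargc1a, the coactivator that drives biogenesis in muscle and brown fat, was near the limit of detection, with 0.694 and 0.605 CPM in transgenic corneas 1 and 2 and 0.361, 0.196 and 0.137 CPM in wild-type corneas 1 to 3. Both transgenic values were the higher ones, and the test was not passed (log2 fold change 1.43 ± 0.60, unadjusted p = 0.0387, adjusted p = 0.774 by edgeR). Of 11 tested carriers, porins and uncoupling proteins 5 were above 0, with Slc25a27 at 6.42 ± 1.01 CPM in transgenic and 4.30 ± 0.836 CPM in wild-type corneas. Of 21 tested genes of pyruvate dehydrogenase and the citric acid cycle 10 were above 0 and 11 below. Idh2, the mitochondrial isocitrate dehydrogenase that makes NADPH, had 30.1 and 39.1 CPM in transgenic and 26.5, 27.4 and 26.2 CPM in wild-type corneas, and its log2 fold change of 0.38 ± 0.13 did not pass (edgeR adjusted p = 0.664).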

How the data were processed

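Per the labels, total RNA of 5 whole corneas was isolated with a column kit and DNase. The authors deposited expected counts, whose column totals differ, for genes and for isoforms. Build rn6 is named per the submitters' processing notes, beside RSEM 1.2.28, STAR 2.5.3a, edgeR 3.28.0, DESeq2 1.26.0, fastp and FastQC, without a role or an order. Estimated counts divide shared reads among copies, so near-identical genes are uncertain.

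Counts were rounded. Genes passing filterByExpr of edgeR 4.0.16 (minimum count 10) in R 4.3.3 were TMM-normalized and tested by the two-sided robust quasi-likelihood F test over all 13304 genes, with Benjamini-Hochberg adjustment and a threshold of 0.05; isoforms likewise. The SE is the log2 fold change over the square root of F, and intervals use the fit's degrees of freedom. CPM follows TMM. No label states separate litters or days, so p-values measure only the spread between these libraries. The procedure was tested on simulated data with 200 changed genes. Alternatives were DESeq2 1.42.0, limma voom (3.58.1), other scalings and filters, each library left out, and a replicate block.

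Genes, lists and tests were chosen with earlier results of these data known. Named are all mitochondrial-encoded genes, the 12 nuclear-encoded genes of smallest p, the 2 most abundant per group, pairs of tissue isoforms and the smallest p of each of 5 context lists; others were chosen after their values were seen. The results of 1 gene are not reported here. Cell type marker lists were summed per library. Corneal epithelium markers summed to 122540 and 96373 CPM in transgenic and 104340, 118430 and 110640 CPM in wild-type corneas. Keratocyte markers summed to 2307 and 2472 CPM in transgenic and 1956, 2019 and 1894 CPM in wild-type corneas. Corneal endothelium markers summed to 1449 and 1477 CPM in transgenic and 1307, 1245 and 1355 CPM in wild-type corneas. Leukocyte sums overlapped (80.0 and 91.9 CPM in transgenic; 98.4, 96.1 and 88.3 CPM in wild-type corneas), and so did brown fat sums (6.44 and 9.01 CPM in transgenic; 7.98, 10.3 and 6.65 CPM in wild-type corneas), with Ucp1 at 0 throughout. Lens markers summed to 10.8 and 9.33 CPM in transgenic and 74.9, 18.8 and 16.1 CPM in wild-type corneas, and photoreceptor markers to 17.7 and 20.2 CPM in transgenic and 23.2, 7.14 and 10.3 CPM in wild-type corneas.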

Additional observations from a re-analysis of the deposited data

How the results depend on the processing

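No respiratory chain or ATP synthase gene passed the threshold under any alternative run (DESeq2 size factors, library totals, no filter on low counts, DESeq2, limma voom, mitochondrial-encoded genes left out, a replicate block, each library left out), and no isoform of them under those run on isoforms. Over the whole table the count of 1 called gene became 2 with no filter and 52 with DESeq2, and from 2 to 36 with a library left out. The replicate numbers are shared by 2 pairs only, whose deviations correlated at 0.001 and -0.105. Deviations of 2 transgenic libraries from their own mean mirror each other, so these values cannot decide whether the numbers pair the samples. With the numbers as a replicate block 16 genes were called, 0 of the set among them. The number of genes of the set whose groups did not overlap, 9, ran from 16 to 43 with a library left out, where fewer libraries make overlap rarer. Without transgenic cornea 1, 27 of 90 were higher and 14 lower, against 27.8% and 27.5% of all genes. Without transgenic cornea 2, 4 were higher and 39 lower, against 22.8% and 24.0%. Without wild-type cornea 1, 5 were higher and 11 lower, against 17.5% and 17.2%. The nuclear median log2 fold change ran from -0.119 to 0.065 with a library left out, the mitochondrial one from -0.09 to 0.07, and the log2 ratio of mitochondrial-encoded to nuclear-encoded counts, 0.005 transgenic minus wild-type, from -0.11 to 0.09. Of 479 values of 41 named genes under alternatives all 479 had the same call, and 55 changed sign within a standard error of 0. Mitochondrial rRNA and tRNA genes were not part of the analysis, so that alternative was not run, and overlap was recomputed only under other scalings, filters and libraries. With 2 transgenic libraries, precision rests on few samples, and for 17 of the 90 genes the interval reached past 1.5-fold.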
